A study of Mus musculus with 8 samples.

Results

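Fatty acid synthesis and desaturation genes were followed in 8 mouse lung tumors, 4 labelled *K-Ctrl* and 4 labelled *K-Setd2KO*. They were taken as a list of 10 gene symbols: *Acly*, *Me1*, *Acaca*, *Fasn*, *Scd1*, *Scd2*, *Elovl1*, *Elovl5*, *Elovl6* and *Fabp5*. Each matched 1 row of the deposited table of 48709 genes, and all 10 were among the 14929 genes that passed the filter on low counts. In both groups the tumors arose in mice of mixed B6J/129S4vJae background of the *K* model, in which Cre starts tumors in the lung. A lentiviral vector given through the trachea delivered Cre, Cas9 and a guide RNA. In *K-Ctrl* the guide targeted *GFP* as a control, and in *K-Setd2KO* it targeted *Setd2*, the gene of the enzyme that places 3 methyl groups on lysine 36 of histone H3. According to the study the *K-Setd2KO* tumors were low grade adenomas matched in stage to the controls, and the age of the animals at harvest is not given in the sources used here. Whole tumor RNA was sequenced, so that a lower level can reflect fewer cells of a type or less RNA per cell, which cannot be told apart. Nothing in the labels says whether tumors of 1 group came from separate mice, and p-values therefore measure the spread between these tumors only.

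Fatty acid synthesis turns citrate that leaves the mitochondrion into fat. ATP-citrate lyase (*Acly*) releases acetyl-CoA, acetyl-CoA carboxylase (*Acaca*) makes malonyl-CoA, and fatty acid synthase (*Fasn*) joins these units into palmitate with reducing power from NADPH, part of which malic enzyme (*Me1*) supplies. Stearoyl-CoA desaturases (*Scd1*, *Scd2*) place a double bond in the chain, and ELOVL enzymes lengthen it. In the lung the pathway serves alveolar type 2 cells, which make the palmitate-rich phospholipids of surfactant. In many cells its genes are driven by the transcription factor SREBP1 (*Srebf1*), which acts downstream of mTORC1.

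Of the 10 genes 1 rose and 1 fell in *K-Setd2KO*, and 8 did not pass the test. *Fasn* was 1.56-fold higher and *Elovl6*, which lengthens palmitate to stearate, was lower by 2.03 on the log2 scale. The count of 2 in 10 stands beside 12.7% of all tested genes called in either direction, 4.97% higher and 7.74% lower, by the quasi-likelihood test of edgeR at an adjusted p of 0.05. The fold changes of 8 genes were above 0 and those of 2 genes below 0. Their median was 0.32 on the log2 scale, against 0.03 over all tested genes. The values of the groups did not overlap for these same 2 genes, and they did not overlap for 20.3% of all tested genes, 9.06% higher and 11.2% lower. The signs of *Scd2*, *Elovl1* and *Elovl5*, which were near 0, turned in some fits without 1 tumor. When libraries were scaled to epithelial markers in place of all genes, 0 of the 10 genes were called higher and 4 lower (*Elovl1*, *Elovl5*, *Elovl6* and *Scd2*), beside 43.9% of all tested genes called.

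The regions upstream of *Fasn* and *Elovl6* are shown because these genes passed the test in opposite directions. Both were read from RefSeq on GRCm38.p6 and run 5′ to 3′ on the strand of the gene, up to the base before the gene begins in the deposited table. The *Fasn* stretch is chr11:120824548-120824797 on the minus strand and the *Elovl6* stretch is chr3:129532136-129532354 on the plus strand. Capitals mark the CCAAT box, the sequence read by the factor NF-Y, on either strand.
Fasn: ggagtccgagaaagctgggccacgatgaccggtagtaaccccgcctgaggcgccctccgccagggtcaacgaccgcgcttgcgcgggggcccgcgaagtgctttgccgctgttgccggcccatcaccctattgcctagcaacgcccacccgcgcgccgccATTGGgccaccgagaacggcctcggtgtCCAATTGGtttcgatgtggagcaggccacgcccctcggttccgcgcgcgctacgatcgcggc
Elovl6: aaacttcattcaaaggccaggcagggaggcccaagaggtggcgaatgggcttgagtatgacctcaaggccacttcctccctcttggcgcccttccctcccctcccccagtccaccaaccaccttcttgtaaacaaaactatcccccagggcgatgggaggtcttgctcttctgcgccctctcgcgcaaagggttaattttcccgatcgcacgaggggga

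The *Fasn* window held 3 matches to CCAAT, of which 2 on opposite strands share bases in the second capital stretch. The *Elovl6* window held no match to any of the motifs searched. These were CCAAT, the sterol regulatory element core TCACNCCAC, the E-box CACGTG and the GC box GGGCGG, each on both strands and over 300 bases that end 50 bases past a start given by RefSeq. For *Elovl6* that start (129532386) lies inside the gene as the table gives it (from 129532355), and for *Acaca* it (84195438) lies far inside (from 84129672). Among 32851 RefSeq promoter windows of that length, 37.4% held CCAAT, 1.24% the sterol element core, 7.15% the E-box and 35.7% the GC box. Entries were found for 7 of the 10 genes, in 9 windows. *Scd1*, *Scd2* and *Fabp5* had none. No window held the sterol element core, and the E-box was in that of *Elovl5* alone. CCAAT was also present near genes that did not pass the test, with 2 matches for *Elovl5* and 1 each for *Elovl1* and *Acly*. *Me1* had 1 match, but only in a further window whose start (86687277) lies far inside the gene (from 86695953, minus strand). Its window nearest the start of the gene held no CCAAT. The window of *Acaca* held none of the motifs, like that of *Elovl6*. *Acly*, *Me1* and *Elovl1* had 4, 4 and 5 GC boxes in the window nearest the start of the gene. A match is a description of the letters and not a bound site, and the lack of a match is not the lack of a site. The sterol element core is rare among all windows (1.24%), so its absence from 9 windows says little.

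Total counts ranged from 5806599 to 21290402 per tumor and overlapped between the groups, and 3 counts corresponded to 0.138 to 0.513 CPM (counts relative to the TMM-scaled library size). *Setd2* itself was at 132 to 153 CPM in *K-Ctrl* and 121 to 153 CPM in *K-Setd2KO* (log2 fold change −0.05, SE 0.115, adjusted p by edgeR = 0.824), so its mRNA does not separate the labels, and a guide RNA need not change an mRNA level. By *Xist* against Y-linked genes, 1 *K-Ctrl* and 3 *K-Setd2KO* tumors were female. The summed level of 20 epithelial markers was 2994 to 4562 CPM in *K-Ctrl* and 4265 to 5286 CPM in *K-Setd2KO*, with 9 genes called higher and 0 lower by edgeR (median log2 fold change 0.60). By the same test 5 of 8 leukocyte, 7 of 10 macrophage, 2 of 8 endothelial and 2 of 8 fibroblast markers were lower, with 0 higher. The 8 adipocyte markers summed to 1.52 to 20.1 CPM in *K-Ctrl* and 0.205 to 3.21 CPM in *K-Setd2KO*. Their defining members *Adipoq* and *Lep* were at 0 counts in every tumor. These levels are set beside the results below, and their part in those results was not tested.

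Levels per kilobase of exon (RPKM, from the same scaled libraries) spanned the expression range. Over the 8 tumors the mean was 1347 RPKM for *Scd1*, above 99.9% of tested genes, and 0.828 RPKM for *Elovl6*, above 13.1% of them. *Scd1* exceeded the next gene, *Scd2* at 213 RPKM, in 8 of 8 tumors. *Scd2* and *Elovl1* (211 RPKM) did not differ beyond their spread, with *Scd2* the higher in 3 tumors. *Elovl5*, *Me1*, *Fasn* and *Acly* followed at 112, 98.6, 90.1 and 83.5 RPKM, and *Elovl5*, *Me1* and *Fasn* each exceeded the next gene in only 4 or 5 of 8 tumors. *Fabp5* was at 34.9 RPKM, below *Acly* in 8 of 8 tumors and above *Acaca* in 7. *Acaca*, the source of malonyl-CoA, was at 7.53 RPKM. Levels per length rest on the summed exon length of each gene, which is longest for *Acaca* at 17074 bases.

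**Figure D1:**
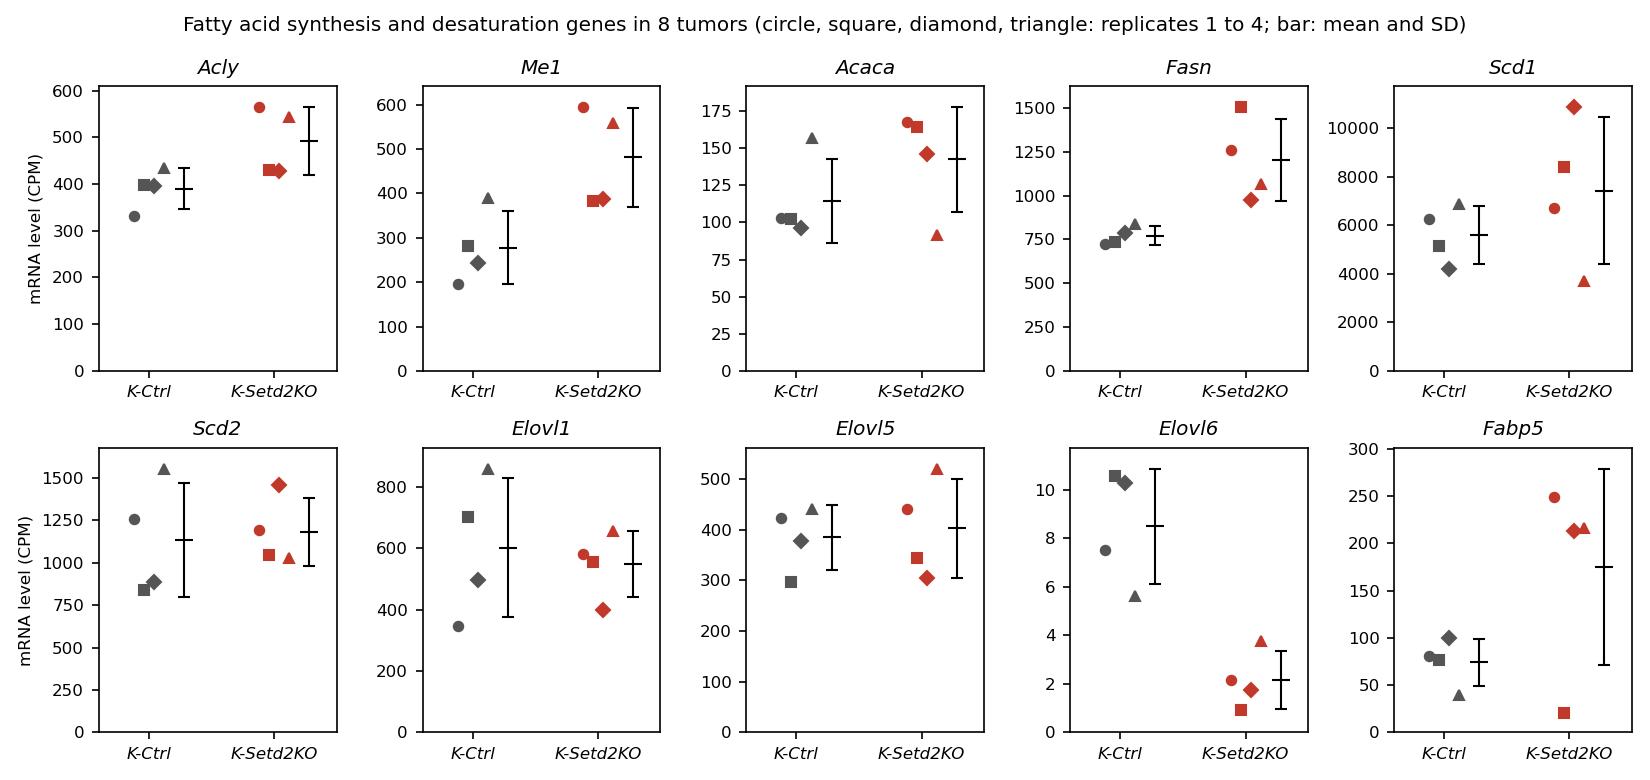
CPM of the 10 genes (y axes, starting at 0) in 4 *K-Ctrl* (grey) and 4 *K-Setd2KO* (red) tumors, with the mean and SD beside each group. The groups separate for *Fasn* (higher, with a log2 fold change of 0.64, or −0.03 after scaling to epithelial markers, which lowers the median of all genes by 0.67) and for *Elovl6* (lower), and overlap for the other 8 genes.

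Carbon and NADPH supply was examined first. *Acly* (ENSMUSG00000020917.17, chromosome 11, 100476353 to 100528000, minus strand, protein-coding) had 331, 399, 396 and 435 CPM in *K-Ctrl* replicates 1 to 4 and 565, 430, 427 and 544 CPM in *K-Setd2KO* replicates 1 to 4. The values overlapped, since replicates 2 and 3 of *K-Setd2KO* lay below *K-Ctrl* replicate 4. The means were 390 ± 43.2 and 492 ± 73.1 CPM (SD over 4 tumors each), with a log2 fold change of 0.33 (SE 0.148, adjusted p by edgeR = 0.167).

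*Me1* (ENSMUSG00000032418.15, chromosome 9, 86581371 to 86695953, minus strand) makes NADPH in the cytosol from malate. It had 195, 282, 244 and 389 CPM in *K-Ctrl* and 595, 384, 386 and 560 CPM in *K-Setd2KO*. All 4 *K-Setd2KO* tumors were above the *K-Ctrl* mean of 277 ± 82.4 CPM, but 2 of them lay just under *K-Ctrl* replicate 4. The *K-Setd2KO* mean was 481 ± 112 CPM (SD over 4 tumors each), with a log2 fold change of 0.79 (SE 0.239, adjusted p by edgeR = 0.0585). The DESeq2 Wald test called the gene (log2 fold change 0.79, adjusted p = 0.0123), as did edgeR with no filter on low counts (0.80, adjusted p = 0.0480) and without *K-Ctrl* replicate 4 (1.00, adjusted p = 0.0233). The other 7 fits without 1 tumor gave adjusted p-values of 0.0517 to 0.148 by edgeR, and a sex term gave 0.185. After scaling to epithelial markers the log2 fold change was 0.17 (adjusted p by edgeR = 0.492). *Me1* overlaps 1 annotated gene on either strand, and whether counting used the read strand is not stated.

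Of the 2 chain-building enzymes *Fasn* passed the test and *Acaca* did not. *Fasn* (ENSMUSG00000025153.9, chromosome 11, 120805846 to 120824547, minus strand, protein-coding, with no annotated gene overlapping it) had 724, 736, 789 and 838 CPM in *K-Ctrl*. In *K-Setd2KO* it had 1259, 1505, 976 and 1065 CPM. The control tumors lay close together and every *K-Setd2KO* tumor was above all of them. The mean rose from 772 ± 52.5 to 1202 ± 234 CPM (SD over 4 tumors each), a log2 fold change of 0.64 (SE 0.162, adjusted p by edgeR = 0.0342).

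The epithelial markers had a median log2 fold change of 0.60, beside 0.64 for *Fasn*. When libraries were scaled to those markers in place of all genes, the log2 fold change of *Fasn* was −0.03 (adjusted p by edgeR = 0.90). That scaling lowered the median of all tested genes by 0.67 on the log2 scale. Relative to that median *Fasn* was at 0.61 under both scalings, which a shift common to all genes leaves in place by construction. Within male tumors the difference in mean log2 CPM was 0.32 and within female tumors 0.78, each from 3 tumors of one genotype and 1 of the other. With sex as a term the adjusted p of *Fasn* by edgeR was 0.125 (log2 fold change 0.56). Leaving out *K-Ctrl* replicate 1, 2 or 3 or *K-Setd2KO* replicate 1 or 2 gave edgeR adjusted p-values of 0.0946, 0.0827, 0.0928, 0.0713 and 0.0507, with log2 fold changes from 0.51 to 0.65.

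*Acaca* (ENSMUSG00000020532.18, chromosome 11, 84129672 to 84401651, plus strand, protein-coding) had 103, 102, 96.3 and 157 CPM in *K-Ctrl* and 168, 164, 146 and 91.7 CPM in *K-Setd2KO*. Replicate 4 was the highest tumor of *K-Ctrl* and, in *K-Setd2KO*, the lowest of all 8. The means were 115 ± 28.2 and 143 ± 35.2 CPM (SD over 4 tumors each, with a log2 fold change of 0.32, SE 0.223, adjusted p by edgeR = 0.377). Leaving out 1 tumor gave *Acaca* log2 fold changes from 0.23 (without *K-Setd2KO* replicate 1) to 0.51 (without *K-Ctrl* replicate 4), none past the threshold. *Acly*, *Acaca* and *Fasn* share chromosome 11, where the median log2 fold change of 1213 tested genes was 0.06 and 11.5% were called.

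**Figure D2:**
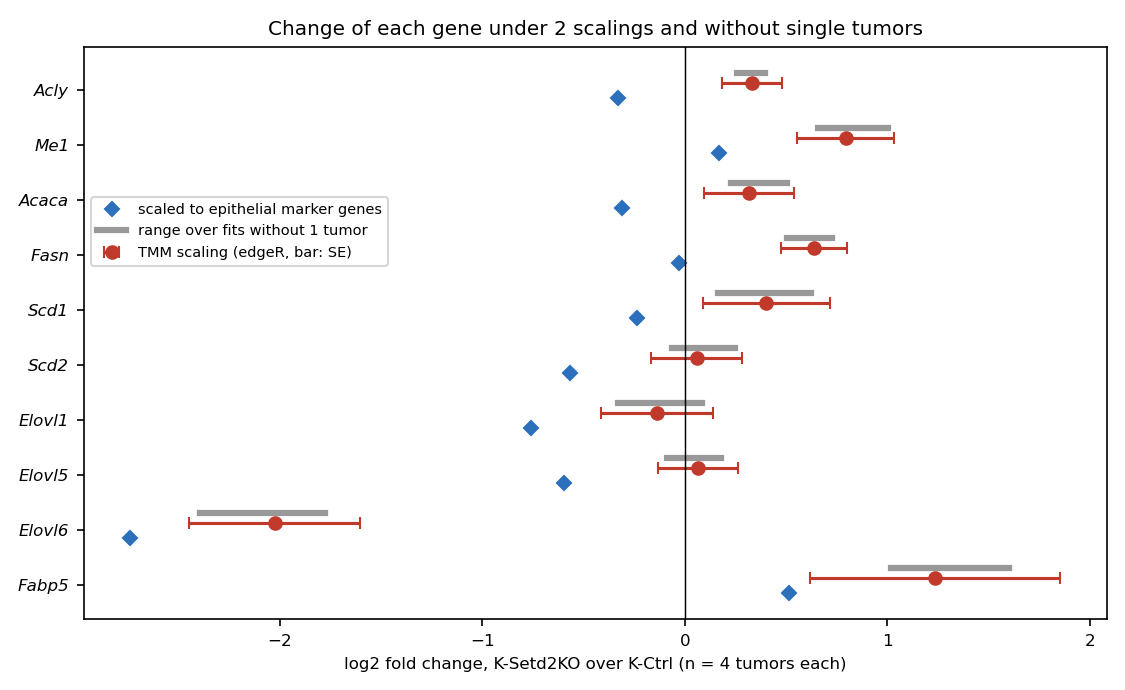
Log2 fold change of each gene, *K-Setd2KO* over *K-Ctrl*, from edgeR with TMM scaling (red, bar SE, n = 4 tumors each), its range over the 8 fits without 1 tumor (grey) and its value after scaling to epithelial markers (blue). *Elovl6* is below 0 throughout, *Me1* and *Fabp5* are above 0 throughout but passed the threshold in only 1 of the 8 fits without a tumor each, and *Acly*, *Acaca*, *Fasn* and *Scd1* are above 0 except after epithelial scaling.

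Desaturation rests here on *Scd1* and *Scd2*, a pair of close paralogs 87.6 kb apart on chromosome 19, between which reads can be misassigned. *Scd1* (ENSMUSG00000037071.2, 44394451 to 44407709, minus strand) had 6272, 5123, 4186 and 6867 CPM in *K-Ctrl* and 6718, 8413, 10858 and 3686 CPM in *K-Setd2KO*. The *K-Setd2KO* tumors spread widely, with replicate 3 the highest and replicate 4 the lowest of all 8. The means were 5612 ± 1195 and 7419 ± 3014 CPM (SD over 4 tumors each, with a log2 fold change of 0.40, SE 0.313, adjusted p by edgeR = 0.423). Without *K-Setd2KO* replicate 3 the log2 fold change was 0.16, and without *K-Setd2KO* replicate 4 it was 0.62 (adjusted p by edgeR = 0.77 and 0.13).

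*Scd2* (ENSMUSG00000025203.5, 44293676 to 44306864, plus strand) had 1260, 838, 887 and 1556 CPM in *K-Ctrl* and 1193, 1046, 1459 and 1031 CPM in *K-Setd2KO*, with the second group inside the range of the first. The log2 fold change was 0.06 (SE 0.225, adjusted p by edgeR = 0.886). Within the pair, *Scd2* made up 15.1%, 12.7%, 15.8% and 16.7% of counts per kilobase in *K-Ctrl* and 13.6%, 9.93%, 10.6% and 19.9% in *K-Setd2KO*. The shares overlapped, with means of 15.1% ± 1.74 and 13.5% ± 4.53 (SD over 4 tumors each, two-sided exact permutation p = 0.543 over 70 assignments). Without *K-Setd2KO* replicate 4 the difference was −3.69 percentage points (exact permutation p = 0.114) and without *K-Setd2KO* replicate 2 −0.373 (exact permutation p = 0.914). Of the 2 further paralogs in the mouse, *Scd4* was at 0.768 and 1.11 CPM on average and *Scd3* at no more than 1.57 CPM in any tumor.

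Of the 3 elongation enzymes *Elovl6* fell, and the other two did not pass the test. *Elovl6* (ENSMUSG00000041220.10, chromosome 3, 129532355 to 129638495, plus strand, protein-coding) had 7.51, 10.6, 10.3 and 5.62 CPM in *K-Ctrl*, from 122, 126, 223 and 63 counts. In *K-Setd2KO* it had 2.16, 0.918, 1.75 and 3.77 CPM, from 42, 12, 19 and 22 counts. Every *K-Setd2KO* tumor was below every *K-Ctrl* tumor. The mean fell from 8.50 ± 2.37 to 2.15 ± 1.195 CPM (SD over 4 tumors each), a log2 fold change of −2.03 (SE 0.423, adjusted p by edgeR = 0.0181).

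The fall of *Elovl6* was −2.02 in mean log2 CPM within male tumors and −2.34 within female tumors, and −2.74 after scaling to epithelial markers (adjusted p by edgeR = 0.00281). Without *K-Ctrl* replicate 3 or *K-Setd2KO* replicate 3 the adjusted p was 0.0563 and 0.0532, with log2 fold changes of −1.92 and −1.95. The gene overlaps 1 annotated gene on either strand. Markers of several other cell types were also lower in *K-Setd2KO*. Their median log2 fold changes were −1.69 for macrophages, −1.54 for leukocytes, −1.42 for endothelium and −0.87 for fibroblasts. The summed macrophage level was 634 to 1815 CPM in *K-Ctrl* and 225 to 406 CPM in *K-Setd2KO*, the leukocyte level 989 to 1778 and 523 to 752 CPM, the endothelial level 492 to 1809 and 188 to 482 CPM, and the fibroblast level 422 to 975 and 144 to 488 CPM. The part of any of them in the fall of *Elovl6* was not tested.

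*Elovl1*, which builds very long saturated chains, and *Elovl5*, which lengthens polyunsaturated ones, were far more abundant. *Elovl1* (ENSMUSG00000006390.15, chromosome 4, 118428093 to 118432953, plus strand) had 347, 703, 497 and 859 CPM in *K-Ctrl* and 580, 555, 400 and 655 CPM in *K-Setd2KO*. The *K-Setd2KO* values lay inside the control range (log2 fold change −0.14, SE 0.276, adjusted p by edgeR = 0.779). *Elovl1* overlaps the cell cycle gene *Cdc20* on the opposite strand. *Elovl5* (ENSMUSG00000032349.13, chromosome 9, 77917364 to 77984519, plus strand) had 424, 297, 377 and 441 CPM in *K-Ctrl* and 441, 343, 305 and 520 CPM in *K-Setd2KO*. The groups overlapped (log2 fold change 0.06, SE 0.199, adjusted p by edgeR = 0.857).

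Set against *Elovl1* and *Elovl5* in the same library, *Elovl6* made up 0.470%, 0.479%, 0.551% and 0.198% of the counts per kilobase of these 3 genes in *K-Ctrl*. In *K-Setd2KO* it made up 0.0992%, 0.0474%, 0.117% and 0.151%. The highest *K-Setd2KO* share was below the lowest *K-Ctrl* share. The means were 0.424% ± 0.155 and 0.103% ± 0.0431 (SD over 4 tumors each), with a two-sided exact permutation p of 0.0286, the smallest that 4 against 4 tumors allow, and 0.0571 after Benjamini-Hochberg adjustment over both shares tested. The share rests on the same *Elovl6* counts, whose groups already did not overlap. It therefore restates the fall of *Elovl6* and is not separate evidence for it. *Elovl1* made up 65.1% ± 10.6 and 63.8% ± 2.60 of the same sum (SD over 4 tumors each).

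**Figure D3:**
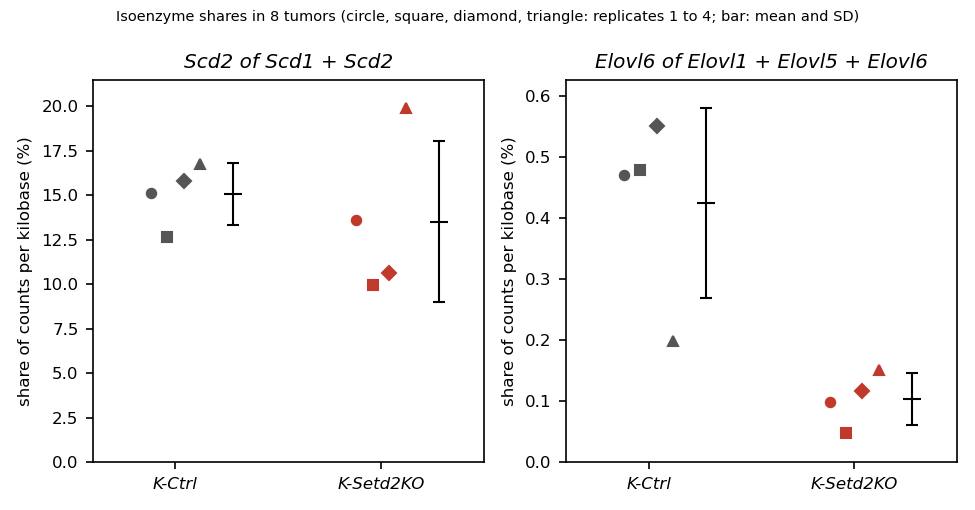
Share of *Scd2* in the *Scd1* and *Scd2* sum (left) and of *Elovl6* in the *Elovl1*, *Elovl5* and *Elovl6* sum (right), in percent of counts per kilobase, for 4 *K-Ctrl* (grey) and 4 *K-Setd2KO* (red) tumors with mean and SD. The *Scd2* shares overlap, and the *Elovl6* shares do not, with *K-Ctrl* replicate 4 (0.198%) nearest to the *K-Setd2KO* tumors.

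*Fabp5* (ENSMUSG00000027533.10, chromosome 3, 10012548 to 10016607, plus strand, protein-coding) encodes a carrier of fatty acids in the cytosol. It had 80.3, 76.7, 99.5 and 39.7 CPM in *K-Ctrl* and 249, 20.7, 213 and 217 CPM in *K-Setd2KO*. Replicates 1, 3 and 4 of *K-Setd2KO* were above all controls, and replicate 2 was the lowest of all 8 tumors. The means were 74.1 ± 25.0 and 175 ± 104 CPM (SD over 4 tumors each, with a log2 fold change of 1.24, SE 0.618, adjusted p by edgeR = 0.216). Without *K-Setd2KO* replicate 2, the lowest tumor, the log2 fold change was 1.60 and the adjusted p by edgeR was 0.0129, while the other 7 fits without 1 tumor gave 0.275 to 0.356. The log2 fold change was 0.79 by limma voom (adjusted p = 0.508) and 0.51 after scaling to epithelial markers (adjusted p by edgeR = 0.554).

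The genes whose pattern over the 8 tumors was most like that of a called member were found by the root-mean-square difference of log2 CPM centered per gene. For *Fasn* they were *Rtcb*, an RNA ligase subunit (0.07 log2 units), *Ldha*, which makes lactate (0.09), and the kinase gene *Ick* (0.12). For *Elovl6* they were the receptor gene *P2ry13* (0.24), the adaptor gene *Scimp* (0.26) and the predicted gene *Gm6209* (0.28). Among the 10 genes themselves the closest pairs were *Acly* with *Elovl5* (0.26) and *Acly* with *Fasn* (0.27), and the least alike were *Elovl6* and *Fabp5* (1.61).

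Neighboring steps of lipid metabolism were then examined in 9 lists with 100 genes, of which 91 were tested. By edgeR 7 were higher and 4 lower, which is 12.1% of those tested against 12.7% of all genes. With a sex term 3 were higher (*Hacd2*, *Mcat* and *Lpcat1*) and 0 lower, and the 4 lower genes had adjusted p-values of 0.0550 (*Me2*), 0.0969 (*Me3*), 0.0791 (*Fabp1*) and 0.0625 (*Lpin1*) by edgeR. Among 8 genes of acetyl-CoA and NADPH supply 0 were higher and 2 lower. These were the mitochondrial malic enzymes *Me2*, at 30.0 ± 9.69 and 14.5 ± 2.81 CPM (log2 fold change −1.05, SE 0.250, adjusted p by edgeR = 0.0280), and *Me3*, at 2.55 ± 0.906 and 0.693 ± 0.512 CPM (log2 fold change −1.81, adjusted p by edgeR = 0.0494). The cytosolic enzyme *Me1* lay on the other side of 0, at 0.79. Of 13 regulators of lipogenesis 0 passed by edgeR, 1 by DESeq2 (*Mlx*) and 0 by limma voom. At an unadjusted p under 0.05 by edgeR there were 2 of the 13, against 29.9% of all tested genes. The lowest p among them was that of *Mlx*, the partner of the sugar-sensing factor ChREBP, at 28.6 ± 4.65 and 42.9 ± 8.76 CPM (adjusted p by edgeR = 0.0645). *Srebf1*, chosen for its role after its values were seen, was at 88.6 and 119 CPM (log2 fold change 0.43, SE 0.209, adjusted p by edgeR = 0.207).

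In the other synthesis and elongation enzymes, 2 of 12 tested genes rose and 0 fell. *Hacd2*, 1 of 4 genes of the dehydratase step of the elongation cycle, rose from 24.1 ± 0.827 to 39.8 ± 4.16 CPM (SD over 4 tumors each, with a log2 fold change of 0.72, SE 0.122, adjusted p by edgeR = 0.00974), without overlap between the groups. The other 3, named after their values were seen, had log2 fold changes below 0 and did not pass the test. Of these *Hacd3*, the most abundant, averaged 152 and 115 CPM without overlap (log2 fold change −0.40, adjusted p by edgeR = 0.0561), and *Hacd1* and *Hacd4* had log2 fold changes of −0.50 and −0.80. *Mcat*, of mitochondrial fatty acid synthesis, rose from 6.47 ± 0.874 to 11.4 ± 1.85 CPM (log2 fold change 0.81, adjusted p by edgeR = 0.0336). *Elovl2*, not tested for low counts, reached 4.37 CPM in *K-Ctrl* replicate 1 and no more than 1.07 CPM elsewhere. A list of 8 tested genes held 5 other desaturases and 3 genes of the cytochrome b5 system that supplies their electrons. Of these 0 passed by edgeR, DESeq2 or limma voom, and *Degs1* and the reductase gene *Cyb5r3* had an unadjusted p under 0.05 by edgeR. The lowest p was that of *Degs1*, a ceramide desaturase (log2 fold change 0.35, adjusted p by edgeR = 0.101).

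Of 9 genes of fatty acid activation 2 were called higher and 0 lower by edgeR, while DESeq2, which called 21.4% of all genes, called 3 higher and 2 lower. The latter, named after their values were seen, were *Acsl1*, at 29.0 and 12.4 CPM without overlap (log2 fold change −1.22, adjusted p by edgeR = 0.0517), and *Slc27a2*, at 4.71 and 0.877 CPM (log2 fold change −2.38, adjusted p by edgeR = 0.123). *Acsl3*, an acyl-CoA synthetase of the lipid droplet and endoplasmic reticulum, increased from 53.8 ± 23.1 CPM to 152 ± 60.7 CPM (a log2 fold change 1.496, SE 0.374, adjusted p by edgeR = 0.0338), although *K-Setd2KO* replicate 2 at 80.9 CPM lay below *K-Ctrl* replicate 4 at 84.6 CPM. *Slc27a4*, a fatty acid transport protein, rose from 30.5 ± 2.60 to 52.6 ± 9.55 CPM (log2 fold change 0.79, adjusted p by edgeR = 0.0141). Of the other fatty acid binding proteins 5 were tested and *Fabp1* fell, from 51.4, 16.0, 13.6 and 4.998 CPM in *K-Ctrl* to 1.44, 4.90, 2.31 and 1.71 CPM (log2 fold change −3.04, SE 0.720, adjusted p by edgeR = 0.0288). *K-Ctrl* replicate 1 was by far the highest.

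In glycerolipid synthesis and storage 1 of 15 genes rose and 1 fell. *Lpin1*, a phosphatidate phosphatase, fell from 63.0 ± 23.9 to 25.0 ± 4.39 CPM (log2 fold change −1.33, adjusted p by edgeR = 0.0158), and *Plin3*, a lipid droplet coat protein, rose from 77.4 ± 9.43 to 106 ± 4.92 CPM (log2 fold change 0.46, adjusted p by edgeR = 0.0329). Of 7 surfactant lipid genes 1 rose. *Lpcat1*, which makes dipalmitoyl phosphatidylcholine in alveolar type 2 cells, increased from 1234 ± 174 CPM to 2548 ± 784 CPM (a log2 fold change 1.05, SE 0.231, adjusted p by edgeR = 0.0217), with groups that did not overlap. Alveolar type 2 markers as a list had 1 of 10 higher and 1 lower, with a median log2 fold change of 0.11. Of 14 genes of fatty acid oxidation 1 rose, *Eci1*, an enoyl-CoA isomerase, from 22.3 ± 2.86 to 33.8 ± 5.29 CPM (adjusted p by edgeR = 0.0400). Scaling to epithelial markers, which lowers the median of all tested genes by 0.67 on the log2 scale and calls 43.9% of them, gave 1 gene of these 9 lists higher and 39 lower. That split follows the shift of all genes and is no result about these lists.

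**Figure D4:**
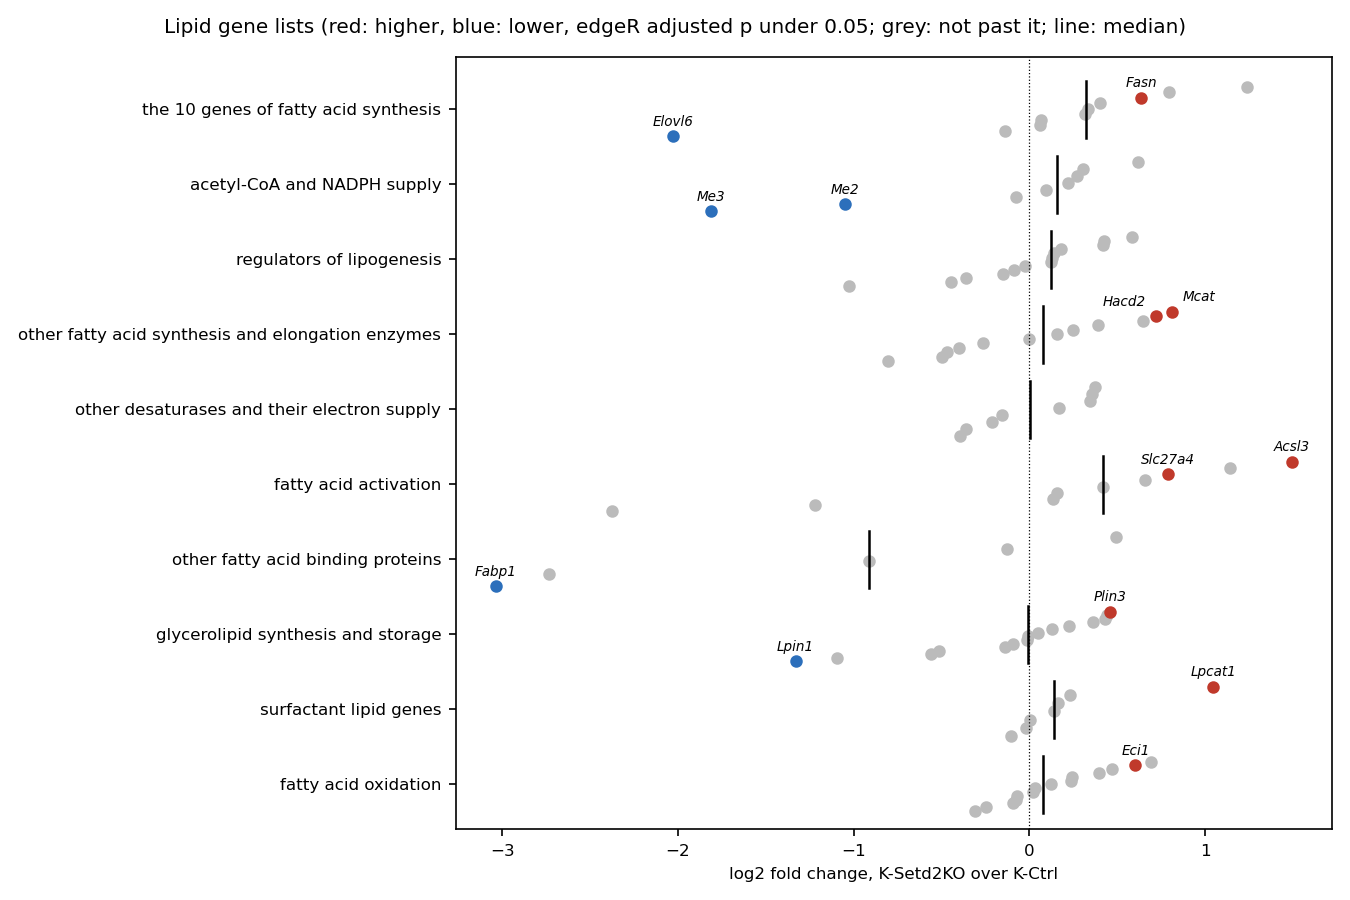
Log2 fold change of each tested gene, *K-Setd2KO* over *K-Ctrl* (x axis), in the 10 genes and in 9 lists of neighboring steps (rows), with called genes in red (higher) or blue (lower) and the median of each row as a line. The 10 genes have a median of 0.32, and the medians of the 9 lists run from −0.91 for other fatty acid binding proteins to 0.42 for fatty acid activation.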

How the data were processed

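RNA of 8 tumors was sequenced with a strand-aware poly(A) kit, and the design text speaks of frozen tumors while the extraction text speaks of cell lines. The authors deposited raw counts per gene with no normalization. Per the labels' processing notes the tools were STAR 2.5.2b and featureCounts 1.5.0-p1 on GRCm38.p4; the annotation release, the strand setting and the treatment of multi-mapping reads are not given in the sources used here. Symbols and GC content came from GENCODE M21, which held 99.26% of the identifiers.

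The counts were tested in R 4.3.3 with edgeR 4.0.16 (filterByExpr, TMM factors, robust quasi-likelihood test, genotype alone, Benjamini-Hochberg adjustment over 14929 genes). The study used DESeq2, run here as version 1.42.0, as was limma voom 3.58.1. The pipeline was tested on simulated data. CPM used TMM-scaled libraries, and log2 CPM had a prior count of 2. SE is the log2 fold change over the square root of F. Total counts set the counting error, and the spread between tumors adds to it. Limits of 3 counts cover counting error only. Named genes were all 10 members, each called gene of the 9 lipid lists or, with none called, the lowest p, and 3 most similar genes per called member. Members and lists were chosen with earlier results of these data known. Samples were grouped by their titles. The alternatives were other scaling factors, scaling to epithelial markers, other filters on low counts, a sex term, the replicate number as a block, removal of a length and GC trend, and leaving out each tumor in turn. Protein sequences were not analysed here.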

Additional observations from a re-analysis of the deposited data

Results flagged for a closer look

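The tumors below stood apart from the other 3 of their genotype by Dixon's test at the 95% level, which sets the gap to the next value against the range. Chance does this in about 1 of 20 groups, and 6 of 50 groups of 4 values had such a tumor, with 2.5 expected. *Acaca* stood at 157 CPM in *K-Ctrl* replicate 4, with the other controls at 96.3 to 103 CPM. *Fabp5* stood at 20.7 CPM in *K-Setd2KO* replicate 2, with the other 3 at 213 to 249 CPM. *Me3* stood at 1.45 CPM in the same tumor, against 0.342 to 0.514 CPM. *Mlx* stood at 35.5 CPM in *K-Ctrl* replicate 2, against 26.1 to 26.5 CPM. *Plin3* stood at 91.5 CPM in *K-Ctrl* replicate 3, against 72.0 to 73.9 CPM. *Lpcat1* stood at 1492 CPM in *K-Ctrl* replicate 4, against 1118 to 1177 CPM.

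*Elovl5*, which did not pass the test overall (adjusted p by edgeR = 0.857), had differences of opposite sign in the sexes, each set against a lone tumor. Among males the 1 *K-Setd2KO* tumor was below all 3 controls (difference −0.44 in mean log2 CPM), and among females all 3 *K-Setd2KO* tumors were above the 1 control (0.53). The difference between the sexes was not tested.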

How the results depend on the processing

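*Elovl6* was below 0 in all 19 fits, and *Fasn* was above 0 in all but the 1 scaled to epithelial markers. That scaling gave log2 fold changes of −0.33 for *Acly*, −0.31 for *Acaca*, −0.031 for *Fasn*, −0.24 for *Scd1*, −0.57 for *Scd2* and −0.60 for *Elovl5*. It called 4 of the 10 genes and 40 of the 91 other lipid genes, in place of 2 and 11, beside 43.9% of all genes, so that these counts are at the share of all genes. With a sex term 1 of the 10 (*Elovl6*) and 3 others (3 higher, 0 lower) were called, with 8.29% of all genes. DESeq2 called 18 others and the fit with no filter 5, with 21.4% and 5.71% of all genes, and both added *Me1* to the 10. Leaving out 1 tumor at a time gave 0 to 3 of the 10 (0 without *K-Ctrl* replicate 3, 3 without *K-Ctrl* replicate 4) and 3 to 12 others, while the share of all genes called ran from 5.09% (without *K-Ctrl* replicate 3) to 13.6%. The log2 fold changes then ran from −0.064 to 0.25 for *Scd2*, −0.33 to 0.088 for *Elovl1* and −0.087 to 0.18 for *Elovl5*. The *Elovl6* share differed by −0.396 to −0.279 percentage points, each time with an exact permutation p of 0.0571, the smallest for 3 against 4 tumors.

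Same-numbered tumors did not deviate together (correlations −0.07, −0.03, 0.19 and −0.02), so the numbers only name them. With the replicate block 0 of the 10 and 6 others were called, beside 8.98% of all genes, at log2 fold changes of 0.62 for *Fasn* (adjusted p by edgeR = 0.0932) and −2.09 for *Elovl6* (0.0548), and the *Elovl6* share differed by −0.321 with an exact sign-flip p of 0.125, the smallest 4 pairs allow. The causes were not tested. At 12 to 42 counts of *Elovl6* per *K-Setd2KO* tumor, counting error limits its fold change.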

Other observations

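Genes of the lipid lists that were too low to test were looked at after their values were seen. Of 99 counts of *Elovl2*, which elongates polyunsaturated fatty acids, 71 were in *K-Ctrl* replicate 1. Of 21 counts of *Fabp2*, the intestinal fatty acid binding protein, 17 were in the same tumor, as were all 4 counts of *Elovl3*. *Fabp1*, the liver form, was also highest there, at 51.4 CPM against 16.0 CPM in the next tumor. *Scd3* had 72 counts over the 8 tumors and at most 1.57 CPM in any of them.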
